A study of Mus musculus with 12 samples.

Results

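The 9 genes described here make, cut or bind hyaluronan: the synthase genes Has1, Has2 and Has3, the depolymerase gene Cemip, the hyaluronidase genes Hyal1 and Hyal2, the receptor gene Cd44, and the genes of 2 binding partners, Vcan and Tnfaip6. They were taken by name from the 54446 genes of the count table, and all 9 passed the filter on low counts, as did 14724 genes in all.

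RNA was sequenced from NIH3T3 cells, an immortal mouse line of embryonic fibroblasts that served as wild type, and from a derivative called ΔN-VEGF, in which Cas9 cutting had removed the coding region of N-VEGF, an amino-terminal part of the longest Vegfa product, from both alleles. Each line was kept in normoxia or for 16 h in hypoxia below 0.2% oxygen, with 3 samples in each of the 4 groups, and the comparisons ask how hypoxia changes RNA levels and whether the loss of N-VEGF alters that response. ΔN-VEGF cells were grown from single picked clones whose selection cassettes were then excised with VCre, and the sources used here do not say which clone or clones were sequenced, so a feature of 1 clone and an effect of the deletion cannot be told apart. The 3 samples of a group are called triplicates. The methods say in general terms that experiments were repeated, but not whether these samples came from separate cultures, so the p-values measure the spread between these samples, which may be technical.

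Samples held 30519052 to 43056690 counts. All 10 genes of a list of known hypoxia-induced genes rose in both lines, and all 8 fibroblast markers examined were above 1 CPM in every group. Vegfa itself was at 39.4 to 86.2 CPM (counts relative to library size, scaled by TMM) in wild-type and 34.2 to 37.3 CPM in ΔN-VEGF normoxia, and at 272 to 291 and 419 to 437 CPM in hypoxia, but a count over the whole gene does not isolate the deleted part. One library of each line stood apart in normoxia: the wild-type sample numbered 2 correlated with its replicates at r = 0.956 and 0.957, where the other pairs of all groups reached 0.986 or more, and the ΔN-VEGF sample numbered 2 was the least like its own replicates. Both differ from the rest at several of the 9 genes, so many of the results are given with all 12 samples and again without both. That second fit was chosen after seeing the data and leaves 2 samples in each normoxia group.

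Hyaluronan is a long, unbranched sugar polymer of the extracellular matrix. The 3 synthases sit in the plasma membrane, draw on UDP-sugars in the cytosol and push the growing chain out of the cell. CEMIP and the hyaluronidases shorten the chains, CD44 binds them at the cell surface, and versican and TSG-6, the product of Tnfaip6, bind or cross-link them into a pericellular coat. Fibroblasts are a main source of this coat.

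Hypoxia lowered the RNA of 4 of the 9 genes in wild-type cells, where 18.3% of all tested genes fell, and of 5 in ΔN-VEGF cells, where 26.4% fell. Hyal1 rose in both lines. Cemip fell most (11-fold in wild-type and 16.3-fold in ΔN-VEGF cells), and Has2, Vcan and Tnfaip6 fell by 2.36-fold to 4.42-fold across both lines. Hyal1 rose 7.0-fold in wild-type cells and 11.6-fold in ΔN-VEGF cells. Cd44 fell in ΔN-VEGF cells, and in wild-type cells it did not pass the test. These are calls at an adjusted p below 0.05 from the quasi-likelihood F test of edgeR, with p-values adjusted over the 14724 genes by the Benjamini-Hochberg method, as are all adjusted p-values below. In bulk RNA, fewer cells that express a gene and less RNA of it per cell cannot be told apart.

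**Figure D1:**
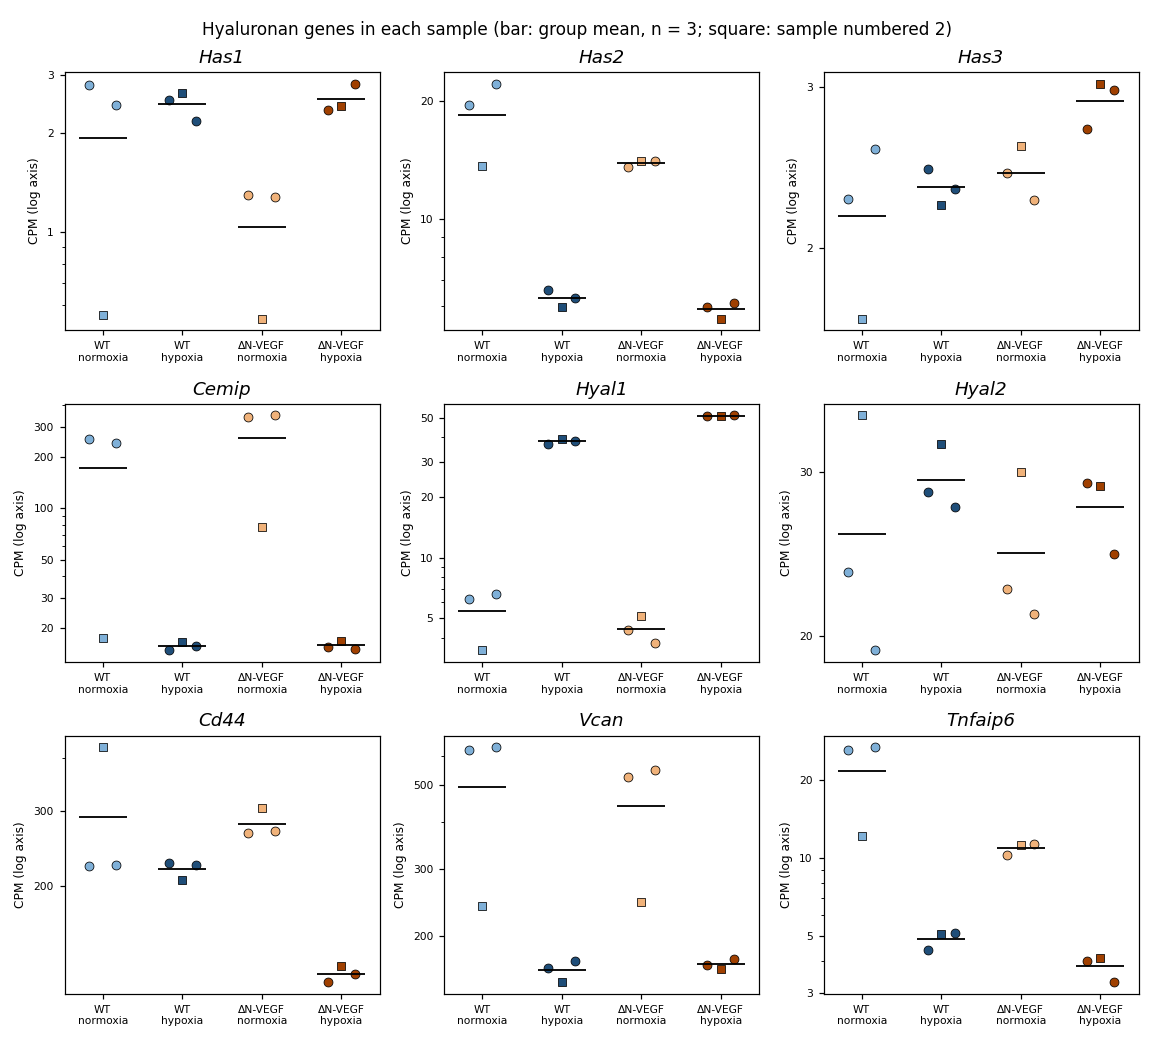
Level of each of the 9 genes in CPM (log axis) in the 12 samples, by group; horizontal bars are group means of 3 samples and squares mark the samples numbered 2. Hyal1 lies at 37.0 to 51.2 CPM in the 6 hypoxia samples and at 3.46 to 6.61 CPM in the 6 normoxia samples, and the squares in normoxia lie far below the circles for Cemip, Vcan and Has1.

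Has2, the main synthase gene of most fibroblasts, had 19.5, 13.7 and 22.1 CPM in the 3 wild-type normoxia samples and 6.59, 5.96 and 6.29 CPM in hypoxia. The ΔN-VEGF samples held 13.5, 14.1 and 14.0 CPM in normoxia and 5.95, 5.57 and 6.10 CPM in hypoxia. Every hypoxia sample lay below every normoxia sample, and the wild-type normoxia sample numbered 2 sat at the level of the ΔN-VEGF cells. The fall was 2.94-fold in wild-type cells (log2 -1.55, 95% confidence interval -1.90 to -1.21, adjusted p 2.5e-05) and 2.36-fold in ΔN-VEGF cells (log2 -1.24, interval -1.59 to -0.89, adjusted p 7e-05).

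The gene span of Has2 (mouse GRCm38, chr15:56665627-56694539, minus strand) overlaps that of the antisense gene Has2os over 4596 bases, introns included. Has2 has 4237 exon bases in all, and how much of the overlap is exon in both genes was not examined. The library kit named in the methods does not mark strand. Reads from exon bases that both genes share therefore cannot be assigned to one of the pair. Has2os moved the other way, from 29 to 54 counts in wild-type normoxia to 100 to 164 counts in hypoxia (log2 2.03, adjusted p 3.8e-05), and from 26 to 36 counts to 140 to 155 counts in ΔN-VEGF cells (log2 2.71, adjusted p 2.8e-06). Its counts remained below those of Has2 in every group, and their share in the Has2 counts was not tested.

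Has1 encodes a second synthase and was scarce, with 23 to 126 counts per sample. It had 2.79, 0.557 and 2.43 CPM in wild-type normoxia, and 2.52, 2.64 and 2.17 CPM in wild-type hypoxia. The ΔN-VEGF samples had 1.29, 0.545 and 1.27 CPM in normoxia and 2.35, 2.41 and 2.82 CPM in hypoxia. The 2 lowest values are the normoxia samples numbered 2, and in ΔN-VEGF cells all hypoxia samples lay above all normoxia samples. Has1 rose 2.43-fold in ΔN-VEGF cells (log2 1.28, interval 0.21 to 2.35, adjusted p 0.044), and the wild-type difference did not pass the test (log2 0.34, interval -0.69 to 1.36, adjusted p 0.60). That wild-type value turned to -0.09 (adjusted p 0.60) without both normoxia samples numbered 2. The ΔN-VEGF call was lost when any 1 sample of the wild-type hypoxia, ΔN-VEGF normoxia or ΔN-VEGF hypoxia group was left out (adjusted p 0.059 to 0.14) and with total counts in place of TMM (log2 0.87, adjusted p 0.18), while without both normoxia samples numbered 2 it was log2 0.97 with an adjusted p of 3.7e-05.

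Has3, the third synthase gene, lay between 1.67 and 3.02 CPM in all 12 samples, or 65 to 133 counts. Its log2 change in hypoxia was 0.10 in wild-type cells (interval -0.28 to 0.49, adjusted p 0.67) and 0.26 in ΔN-VEGF cells (interval -0.12 to 0.64, adjusted p 0.22). The wild-type value was -0.05 without both normoxia samples numbered 2, and total counts in place of TMM gave -0.14 in both lines, with no call in any of these fits. In ΔN-VEGF cells the 3 hypoxia samples lay above the 3 normoxia samples although the test did not call the difference. Has3 overlaps the opposite-strand gene Chtf8, which had 3389 to 6103 counts and did not pass the test in either line (log2 0.04 and 0.11).

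Levels of the 3 synthases were set side by side per kilobase of annotated exon, which is 4.518 kb for Has1, 4.237 kb for Has2 and 6.380 kb for Has3. Has2 supplied 82.6% to 89.3% of the synthase CPM per kilobase in the 6 normoxia samples and 56.6% to 63.8% in the 6 hypoxia samples, and the 2 ranges did not overlap. Has1 took 3.14% to 11% in normoxia and 20.6% to 25.0% in hypoxia. Has2 was still the most abundant of the 3 in every sample. The ratio of Has2 to Has3 counts, which needs no scaling between libraries, went from 8.18 to 8.65 in wild-type normoxia to 2.68 to 2.71 in hypoxia, and from 5.45 to 6.22 to 1.84 to 2.21 in ΔN-VEGF cells.

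**Figure D2:**
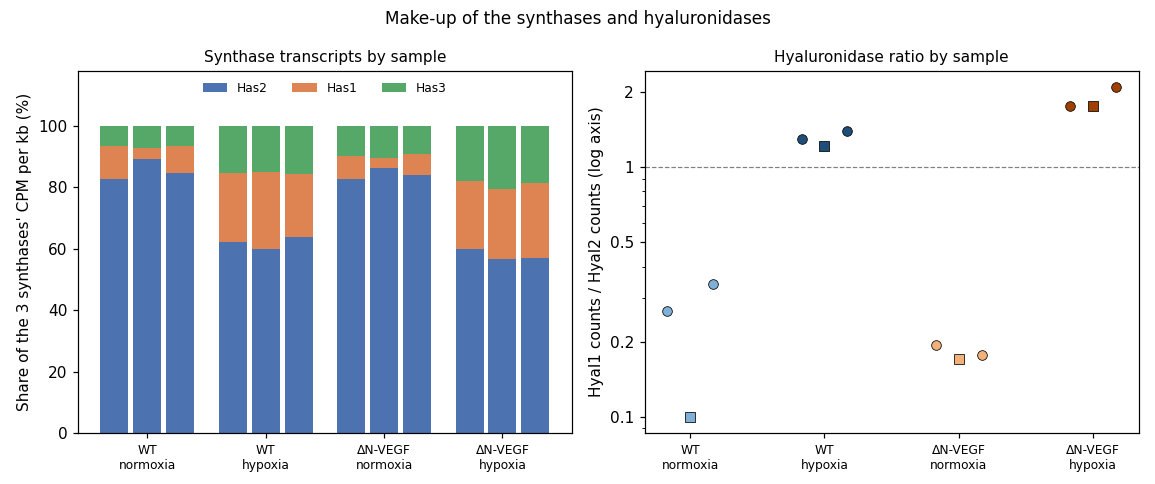
Left, the share of each synthase gene in the summed CPM per kilobase of Has1, Has2 and Has3, 1 bar per sample; right, Hyal1 counts over Hyal2 counts in each sample (log axis, dashed line at 1, squares for samples numbered 2). Has2 falls from at least 82.6% to at most 63.8% of the synthase signal, and the hyaluronidase ratio is below 1 in the 6 normoxia samples and above 1 in the 6 hypoxia samples.

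Cemip encodes a hyaluronan-binding protein that fibroblasts need to depolymerise the polymer. It had 255, 17.4 and 241 CPM in the wild-type normoxia samples and 14.7, 16.4 and 15.5 CPM in hypoxia. The ΔN-VEGF line had 343, 77.4 and 350 CPM in normoxia and 15.4, 16.7 and 15.0 CPM in hypoxia. The 6 hypoxia samples were nearly level with each other, whereas wild-type normoxia sample 2, with 750 counts against 11153 and 12505 in its replicates, was just above the hypoxia samples and ΔN-VEGF normoxia sample 2 lay in between.

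The fall of Cemip was log2 -3.46 in wild-type cells (interval -5.26 to -1.66, adjusted p 0.0067) and log2 -4.03 in ΔN-VEGF cells (interval -5.87 to -2.18, adjusted p 0.002). Without both normoxia samples numbered 2 the values were -3.99 ± 0.06 (SE) and -4.47 ± 0.06, with adjusted p-values of 1.8e-20 and 6e-21. The gene spans chr7:83932857-84086502 on the minus strand of GRCm38, and no other gene of the annotation at hand overlaps it.

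Hyal1, which encodes a hyaluronidase of the lysosome, went the opposite way. It had 6.23, 3.46 and 6.61 CPM in wild-type normoxia and 37.0, 38.9 and 38.4 CPM in hypoxia. In ΔN-VEGF cells it had 4.35, 5.14 and 3.75 CPM in normoxia and 51.1, 51.1 and 51.2 CPM in hypoxia. Normoxia and hypoxia did not overlap, and in hypoxia every ΔN-VEGF sample was above every wild-type sample. The rise was log2 2.81 in wild-type cells (interval 2.34 to 3.27, adjusted p 2.6e-06) and log2 3.53 in ΔN-VEGF cells (interval 3.05 to 4.01, adjusted p 3.2e-07).

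The Hyal1 locus (GRCm38, chr9:107576927-107581710, plus strand) is crowded. Nat6, named Naa80 in newer annotation, overlaps it over 2824 bases and Hyal3 over 893 bases, both on the same strand. These are overlaps of gene spans, introns included. How the counting treated reads in such stretches is not given in the sources used here. Nat6 rose as well, from 600 to 935 counts to 1761 to 2360 counts in wild-type cells (log2 1.77, adjusted p 1.8e-06) and from 558 to 660 to 2097 to 2311 counts in ΔN-VEGF cells (log2 2.26, adjusted p 1.7e-07). Hyal3 had at most 17 counts in any sample. The part of Nat6 reads in the Hyal1 counts was not tested.

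Hyal2, the neighbour of Hyal1 on chromosome 9, encodes a hyaluronidase anchored at the cell surface. It ranged from 19.3 to 34.5 CPM, and the highest value was wild-type normoxia sample 2. Its log2 change was 0.19 in wild-type cells (interval -0.25 to 0.64, adjusted p 0.49) and 0.17 in ΔN-VEGF cells (interval -0.28 to 0.61, adjusted p 0.51), and groups overlapped in both. Without both normoxia samples numbered 2 it was 0.46 (adjusted p 0.00019) and 0.33 (adjusted p 0.0038), both called higher. With total counts in place of TMM the values were -0.01 and -0.23, neither called. The antisense gene Gm9917 overlaps the gene span of Hyal2 over 471 bases. It rose from 24 to 47 counts to 84 to 97 counts in wild-type cells (log2 1.92, adjusted p 0.00089). In ΔN-VEGF cells it rose from 12 to 30 counts to 75 to 104 counts (log2 2.43, adjusted p 0.00013). The part of Gm9917 reads in the Hyal2 counts was not tested.

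The count ratio of Hyal1 to Hyal2 was 0.266, 0.1003 and 0.342 in wild-type normoxia and 1.30, 1.21 and 1.40 in hypoxia. For the ΔN-VEGF line it was 0.194, 0.171 and 0.178 in normoxia and 1.75, 1.76 and 2.09 in hypoxia. Hyal2 counts exceeded Hyal1 counts in every normoxia sample, and the order was turned in every hypoxia sample.

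Cd44 encodes the main cell-surface receptor for hyaluronan. It had 223, 424 and 224 CPM in wild-type normoxia and 227, 207 and 224 CPM in hypoxia. In ΔN-VEGF cells it had 266, 305 and 269 CPM in normoxia and 119, 130 and 124 CPM in hypoxia. Apart from the high wild-type normoxia sample 2, the wild-type samples of both conditions lay together, while the ΔN-VEGF conditions were well apart. The change was log2 -0.40 in wild-type cells (interval -0.86 to 0.06, adjusted p 0.15) and log2 -1.17, or 2.25-fold lower, in ΔN-VEGF cells (interval -1.64 to -0.71, adjusted p 0.00077). Without both normoxia samples numbered 2 the wild-type value was -0.02 (adjusted p 0.78) and the ΔN-VEGF value -1.11 (adjusted p 3.6e-13), and with total counts in place of TMM the wild-type value was -0.59 and passed the test (adjusted p 0.011).

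Vcan encodes versican, a large proteoglycan that binds hyaluronan through its amino-terminal end. It had 620, 240 and 631 CPM in wild-type normoxia and 165, 151 and 172 CPM in hypoxia. In ΔN-VEGF cells it had 527, 246 and 548 CPM in normoxia and 168, 164 and 174 CPM in hypoxia. All hypoxia samples lay below all normoxia samples, and the normoxia samples numbered 2 of both lines lay nearer to hypoxia than to their own replicates. Vcan fell by log2 -1.61 in wild-type cells (interval -2.39 to -0.83, adjusted p 0.0045) and -1.39 in ΔN-VEGF cells (interval -2.16 to -0.61, adjusted p 0.0067), and by -1.94 and -1.68 without both of those samples.

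Tnfaip6 encodes TSG-6, which links hyaluronan chains and transfers protein chains onto them. It had 25.9, 12.1 and 26.6 CPM in wild-type normoxia and 4.41, 5.10 and 5.12 CPM in hypoxia. ΔN-VEGF cells had 10.3, 11.2 and 11.3 CPM in normoxia and 4.01, 4.12 and 3.31 CPM in hypoxia. The 4 groups followed each other without overlap, from wild-type normoxia down to ΔN-VEGF hypoxia. The fall was 4.42-fold in wild-type cells (log2 -2.15, interval -2.70 to -1.59, adjusted p 7.5e-05) and 2.87-fold in ΔN-VEGF cells (log2 -1.52, interval -2.08 to -0.96, adjusted p 0.00048).

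Over the whole set, wild-type cells had 1 of the 9 genes called higher and 4 called lower, where 18.2% of all tested genes rose, 18.3% fell and 36.5% were called in either direction. In ΔN-VEGF cells 2 rose and 5 fell, where 26.9% of all tested genes rose, 26.4% fell and 53.3% were called. The 9 genes had a median log2 change of -0.40 in wild-type cells and of -1.17 in the ΔN-VEGF line, against -0.07 and -0.01 over all tested genes. Without both normoxia samples numbered 2, 6 of the 9 were called in wild-type cells and 8 in ΔN-VEGF cells, where 65.3% and 71.4% of all tested genes were called.

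**Figure D3:**
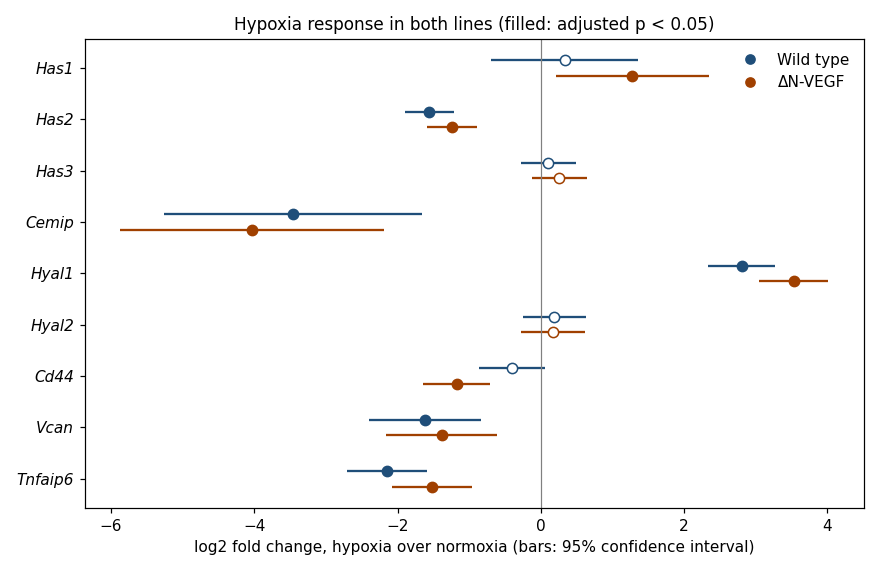
The log2 fold change of hypoxia over normoxia for the 9 genes in wild-type (blue) and ΔN-VEGF cells (brown), with 95% confidence intervals; filled points have an adjusted p below 0.05. Hyal1 lies furthest to the right at 2.81 and 3.53 and Cemip furthest to the left at -3.46 and -4.03, with the widest intervals for Cemip.

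The part of each gene just before its start was read for the core of the hypoxia response element, the short motif that hypoxia-inducible factors bind, written as ACGTG or GCGTG and searched on both strands. RefSeq sequences on GRCm38.p6 were at hand for 7 of the 9 genes (Has1, Cemip, Hyal1, Hyal2, Cd44, Vcan and Tnfaip6). The 250 bases before the start given in that RefSeq set were searched. This start is not always the gene boundary of the annotation used above. The windows of Has1, Hyal1 and Tnfaip6 lie partly, and that of Hyal2 wholly, inside the annotated gene. Of all 32851 promoters in the RefSeq set, 38.6% held either form in this window (ACGTG 16.6%, GCGTG 28.2%). Among the 7 genes only Cd44 did, with ACGTG 29 bases before the start. The windows of the gene that fell most, the gene that rose most and the gene with the match are shown 5′ to 3′ on the gene's strand, with the motif in capitals.
Cemip (chr7:84086506-84086755, minus strand): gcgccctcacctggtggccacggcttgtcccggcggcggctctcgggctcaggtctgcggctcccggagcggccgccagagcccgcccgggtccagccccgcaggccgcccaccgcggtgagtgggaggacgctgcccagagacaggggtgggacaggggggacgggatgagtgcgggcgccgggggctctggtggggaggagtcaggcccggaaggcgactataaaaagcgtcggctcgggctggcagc
Hyal1 (chr9:107576700-107576949, plus strand): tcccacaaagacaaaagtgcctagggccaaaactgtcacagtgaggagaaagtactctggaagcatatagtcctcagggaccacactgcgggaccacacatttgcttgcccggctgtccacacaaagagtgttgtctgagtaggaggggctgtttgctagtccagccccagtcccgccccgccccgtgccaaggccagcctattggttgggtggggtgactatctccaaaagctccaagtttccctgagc
Cd44 (chr2:102901666-102901915, minus strand): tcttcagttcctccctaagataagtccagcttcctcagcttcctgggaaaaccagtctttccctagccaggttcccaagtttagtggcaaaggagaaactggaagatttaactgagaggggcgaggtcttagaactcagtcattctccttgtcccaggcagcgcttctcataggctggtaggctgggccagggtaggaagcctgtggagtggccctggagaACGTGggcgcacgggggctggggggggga
Cd44, with the match, fell in ΔN-VEGF cells, and the other 6 windows, of genes that rose, fell or were not called, do not hold these letters. Such a match describes the sequence only and is not a measured binding site.

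The lines were also compared directly, to ask what the loss of N-VEGF changes at each oxygen level. In normoxia 1 of the 9 genes was called, Tnfaip6, which was 1.97-fold lower in ΔN-VEGF cells (log2 -0.98, interval -1.52 to -0.45, adjusted p 0.048), where 4.36% of all tested genes were called. All 3 ΔN-VEGF samples (10.3 to 11.3 CPM) lay below all 3 wild-type samples, and wild-type sample 2 at 12.1 CPM lay closest to them. This call stood at the threshold: the fit with replicate number as a block gave log2 -0.95 with an adjusted p of 0.074. A block within the 6 normoxia samples gave -0.90 with 0.28, in a fit that called 0.00718% of all tested genes. Leaving out any 1 of the 12 samples other than wild-type normoxia sample 2 gave adjusted p-values of 0.074 to 0.18. Without both normoxia samples numbered 2 it was -1.28 with an adjusted p of 7.6e-10.

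In hypoxia 1 of the 9 genes was called, Cd44, which was 1.77-fold lower in ΔN-VEGF cells (log2 -0.82, interval -1.28 to -0.36, adjusted p 0.019), where 20.1% of all tested genes were called. The 3 ΔN-VEGF samples lay at 119 to 130 CPM and the 3 wild-type samples at 207 to 227 CPM. The call was lost without wild-type hypoxia sample 1 or 3, or without any 1 of the ΔN-VEGF hypoxia samples (log2 -0.79 to -0.86, adjusted p 0.060 to 0.078), and kept with an adjusted p of 6e-11 without both normoxia samples numbered 2. Hyal1 was 1.34-fold higher in ΔN-VEGF hypoxia (log2 0.42, interval -0.01 to 0.85, adjusted p 0.16), with groups that did not overlap. When only the 6 hypoxia samples were fitted, 57% of all tested genes were called, and this difference had an adjusted p of 1.2e-05, and Tnfaip6 was also called lower (log2 -0.36, adjusted p 0.019).

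For Cemip, Has2 and Vcan the lines did not differ by the test in hypoxia. Their log2 differences were 0.02 (interval -1.65 to 1.68), -0.10 (interval -0.45 to 0.25) and 0.05 (interval -0.71 to 0.81), and the hypoxia samples of both lines overlapped for all 3 genes. All groups share 1 estimate of the spread, and without both normoxia samples numbered 2 the difference for Cemip was 0.02 ± 0.07 (SE).

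The difference between the hypoxia responses, ΔN-VEGF minus wild type, was called by edgeR for 0 of the 9 genes, where 3.36% of all tested genes were called. At an unadjusted p below 0.05 edgeR held 2 genes, Hyal1 and Cd44. DESeq2, which called 10.7% of all genes it tested, also called 0 of the 9 and held the same 2 at that level. The share of all tested genes at that unadjusted level was not determined, so these 2 are no result about the set. By edgeR the difference was log2 0.73 for Hyal1 (interval 0.10 to 1.35, p 0.026, adjusted p 0.17) and -0.77 for Cd44 (interval -1.42 to -0.12, p 0.024, adjusted p 0.17). Tnfaip6 had a difference of 0.63 (interval -0.15 to 1.40, adjusted p 0.34) and Has1 of 0.94 (interval -0.53 to 2.42, adjusted p 0.46).

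Of all single samples left out, wild-type normoxia sample 2 moved these counts most. Without it alone, 5 of the 9 genes were called in normoxia, 3 in hypoxia and 5 for the difference between the responses, where 48.9%, 42.4% and 44.4% of all tested genes were called, whereas without ΔN-VEGF normoxia sample 2 alone the numbers were 0, 1 and 0, against 4.18%, 21% and 4.76% of all tested genes. Without both, 7 of the 9 genes differed between the lines in normoxia, 4 differed in hypoxia and 7 responded differently to hypoxia, where 53.6%, 55.8% and 52.8% of all tested genes did so. In normoxia Has1 (log2 -1.0, adjusted p 6.6e-05), Has2 (-0.59, 8e-06), Hyal1 (-0.65, 1.7e-05), Vcan (-0.21, 0.0089) and Tnfaip6 were then lower in ΔN-VEGF cells. Cemip (0.49, adjusted p 1.4e-06) and Cd44 (0.27, adjusted p 0.00096) were higher. Cd44 had been at -0.05 (interval -0.51 to 0.41, adjusted p 0.92) with all 12 samples, where it had no call in either direction.

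In hypoxia, the same 10 samples called Hyal1 (log2 0.42, adjusted p 2.5e-06) and Has3 (0.31, 0.048) higher and Cd44 and Tnfaip6 (-0.35, 0.01) lower in ΔN-VEGF cells. The difference between the responses was then 1.07 for Hyal1 (adjusted p 1.5e-07), -1.09 for Cd44 (7.3e-10), 0.92 for Tnfaip6 (2.1e-05), 1.06 for Has1 (5e-04), 0.49 for Has2 (0.0029), -0.48 for Cemip (0.00018) and 0.26 for Vcan (0.013). In these 10 samples Hyal1 thus rose further and Cemip fell further, Cd44 fell in the ΔN-VEGF line with no call in the wild type, and Has2, Vcan and Tnfaip6 fell less in the ΔN-VEGF line than in the wild type.

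**Figure D4:**
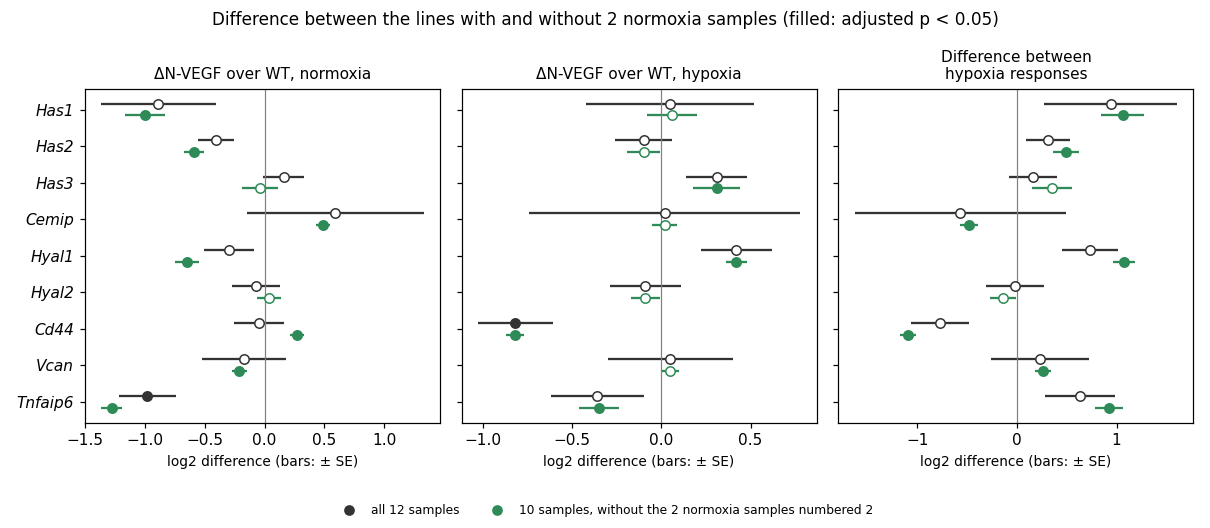
The log2 difference between ΔN-VEGF and wild-type cells in normoxia, in hypoxia and in the response to hypoxia for the 9 genes, with all 12 samples (black) and without both normoxia samples numbered 2 (green). Bars are ± SE and filled points have an adjusted p below 0.05; 1, 1 and 0 genes are called with all samples and 7, 4 and 7 without those 2 samples.

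The other genes of the pathway were taken from a list of 53, of which 32 were abundant enough to test. In hypoxia 8 of the 32 were higher and 10 lower in wild-type cells, and 11 were higher and 11 lower in ΔN-VEGF cells, or 56.2% and 68.8% called, set against 36.5% and 53.3% of all tested genes. Of the genes that supply the UDP-sugars, 4 of the 7 tested (Ugdh, Ugp2, Gfpt1 and Pgm3) were higher in both lines, and 1, Uap1l1, was lower in both. Ugdh, whose enzyme makes UDP-glucuronic acid, went from 119, 156 and 119 CPM to 644, 581 and 631 CPM in wild-type cells (log2 2.23, adjusted p 5.1e-07). The ΔN-VEGF line went from 173, 136 and 174 CPM to 640, 658 and 637 CPM (log2 2.001, adjusted p 5.2e-07). Ugdh thus rose in the samples in which Has2 fell.

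Among genes for breaking hyaluronan down, Tmem2, which is also called Cemip2 and encodes a membrane protein with hyaluronidase activity, fell in both lines. It went from 44.3, 40.01 and 44.5 CPM to 12.8, 12.9 and 12.6 CPM in wild-type cells (log2 -1.75, adjusted p 5.5e-06) and from 42.9, 63.2 and 43.6 CPM to 14.7, 16.7 and 16.1 CPM in ΔN-VEGF cells (log2 -1.66, adjusted p 4.2e-06). Its wild-type normoxia sample 2 was close to its replicates, where that of Cemip was not. Gusb, which encodes the lysosomal enzyme that removes glucuronic acid, fell in both lines as well (log2 -1.35, adjusted p 2e-04, and -2.37, adjusted p 2.3e-06). Hyal3, a scarce hyaluronidase gene, was called higher in ΔN-VEGF hypoxia (log2 1.93, adjusted p 0.015), from 1 to 7 counts to 7 to 13 counts. In wild-type cells it was not called (log2 0.01, adjusted p 0.99). Hexa passed the test in neither line with all 12 samples.

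Of the other receptor genes, Hmmr and Tlr2 fell and Stab2 and Layn rose in both lines. Hmmr, which is also a gene of dividing cells, fell by log2 -1.71 in wild-type cells (adjusted p 0.0052) and -2.72 in ΔN-VEGF cells (adjusted p 2e-04), and it was high in wild-type normoxia sample 2, at 116 CPM against 33.0 and 37.2 CPM in its replicates. Without both normoxia samples numbered 2 the wild-type fall of Hmmr was 1.84-fold in place of 3.27-fold (log2 -0.88, adjusted p 1.7e-09), and the ΔN-VEGF value was -2.65. Tlr2 fell by -2.73 (adjusted p 0.00073) and -1.90 (adjusted p 0.0034), with 11.3 CPM in wild-type normoxia sample 2 against 49.2 and 47.7 CPM in its replicates, and by -3.16 and -2.12 without both samples numbered 2. Stab2, a scavenger receptor known from sinusoidal endothelium, rose from a mean of 0.370 to 2.39 CPM in wild-type cells (log2 2.69, adjusted p 5.6e-06) and from 0.344 to 3.74 CPM in ΔN-VEGF cells (log2 3.44, adjusted p 5.2e-07). The summed level of 4 endothelial markers was 2.69 to 5.27 CPM over the normoxia samples, 7.72 to 9.93 CPM in wild-type and 20.7 to 25.7 CPM in ΔN-VEGF hypoxia. Most of that sum was Cdh5, at up to 24.4 CPM, while Pecam1 and Tek stayed below 1 CPM in all samples and Tie1 reached 1.92 CPM. Their part in the Stab2 result was not tested.

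Of 7 genes for proteins that tie CD44 to the cytoskeleton or shed it from the surface, Rdx, Nf2 and Adam10 fell in both lines and Ezr fell in ΔN-VEGF cells, and 0 of the 7 were called higher in either line. The calls make up 42.9% of the 7 in the wild type and 57.1% in the ΔN-VEGF line, near the 36.5% and 53.3% of all tested genes. Some were called higher without both normoxia samples numbered 2: Ezr (log2 0.76, from 0.31) and Msn (0.64, from 0.11) in wild-type cells, and Msn and Mmp14 (both 0.15) in ΔN-VEGF cells. In wild-type cells Mmp14 went the other way. It had 372 and 362 CPM in normoxia samples 1 and 3, and 311, 341 and 310 CPM in hypoxia. Among the proteases that cleave versican, Adamts4 fell in wild-type cells (log2 -1.95, adjusted p 0.029) with overlapping groups, since wild-type normoxia sample 2 had 2.83 CPM against 31.0 and 29.7 CPM in its replicates. Without both samples numbered 2 the value was -2.46 (adjusted p 2.4e-15), and in ΔN-VEGF cells Adamts4 went from -0.11 with no call to -0.33 (adjusted p 0.0041). Adamts1 rose in ΔN-VEGF cells (log2 0.89, adjusted p 0.0053). Of 16 other genes listed for proteins that bind or link hyaluronan, not all of them matrix proteins, 11 were too scarce to test, among them Acan and Hapln1. Of the 5 tested, 1 was called higher and 1 lower in wild-type cells, and 2 higher and 2 lower in ΔN-VEGF cells. Habp4 fell in both lines (log2 -0.80, adjusted p 8.3e-05, and -0.61, adjusted p 0.00033). Ptx3, whose product works with TSG-6 in assembling hyaluronan matrices, rose 2.86-fold in ΔN-VEGF cells (log2 1.52, adjusted p 0.0034), from 6.46, 5.26 and 5.88 CPM to 17.9, 15.8 and 16.7 CPM. In wild-type cells Ptx3 had 6.37, 1.81 and 6.28 CPM in normoxia and 5.53, 5.24 and 5.30 CPM in hypoxia (log2 0.15, adjusted p 0.76), and without both samples numbered 2 the value turned to -0.23 (adjusted p 0.042). Itih4 rose 10.2-fold in wild-type cells from a mean of 0.235 CPM (log2 3.35, adjusted p 9.2e-05), or 16.2-fold (log2 4.01) without wild-type normoxia sample 2, and its ΔN-VEGF value was 0.90 (adjusted p 0.087). In the ΔN-VEGF line Hapln4 fell (log2 -0.48, adjusted p 0.012) and Itih2, at 7 to 8 counts per normoxia sample, rose (4.29-fold, adjusted p 0.011).

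Between the lines, 0 of the 32 genes were called in normoxia by edgeR, where 4.36% of all tested genes were, and 3 by DESeq2, where 8.16% were. The normoxia count was 16 without wild-type normoxia sample 2 and 19 without both samples numbered 2, fits that called 48.9% and 53.6% of all tested genes. Adamts5 went from -1.22 (adjusted p 0.094) to -1.56 (adjusted p 1.7e-11) without both, Itih2 from -1.98 (adjusted p 0.081) to -2.42 (adjusted p 8.9e-06), and Hmmr from 0.06 (adjusted p 0.95) to 0.81 (adjusted p 2.8e-08). In hypoxia edgeR called 4 higher and 3 lower in ΔN-VEGF cells, or 21.9%, near the 20.1% of all tested genes. That count was 16 without wild-type normoxia sample 2, 24 with only the 6 hypoxia samples and 25 without both samples numbered 2, against 42.4%, 57% and 55.8% of all tested genes. The split was 2 higher and 9 lower when libraries were scaled by total counts, a scaling under which 673 of all tested genes were higher and 3272 lower (26.8% called), and 2 higher and 3 lower with the replicate block (22% of all tested genes). The highest was Ptx3, at means of 16.8 against 5.36 CPM (log2 1.65, adjusted p 0.0079). Gfpt1, the entry enzyme of the hexosamine pathway (log2 0.70, adjusted p 0.0019), Stab2 (0.64, 0.041) and Ugp2 (0.42, 0.042) were also higher. Gusb (-0.74, adjusted p 0.018), Hapln4 (-0.42, adjusted p 0.05, just under the threshold before rounding) and Itih4 (-1.84, adjusted p 0.0068) were lower. Itih4, Itih2 and Hyal3 lie below the level required for naming and were chosen after their values were seen.

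**Figure D5:**
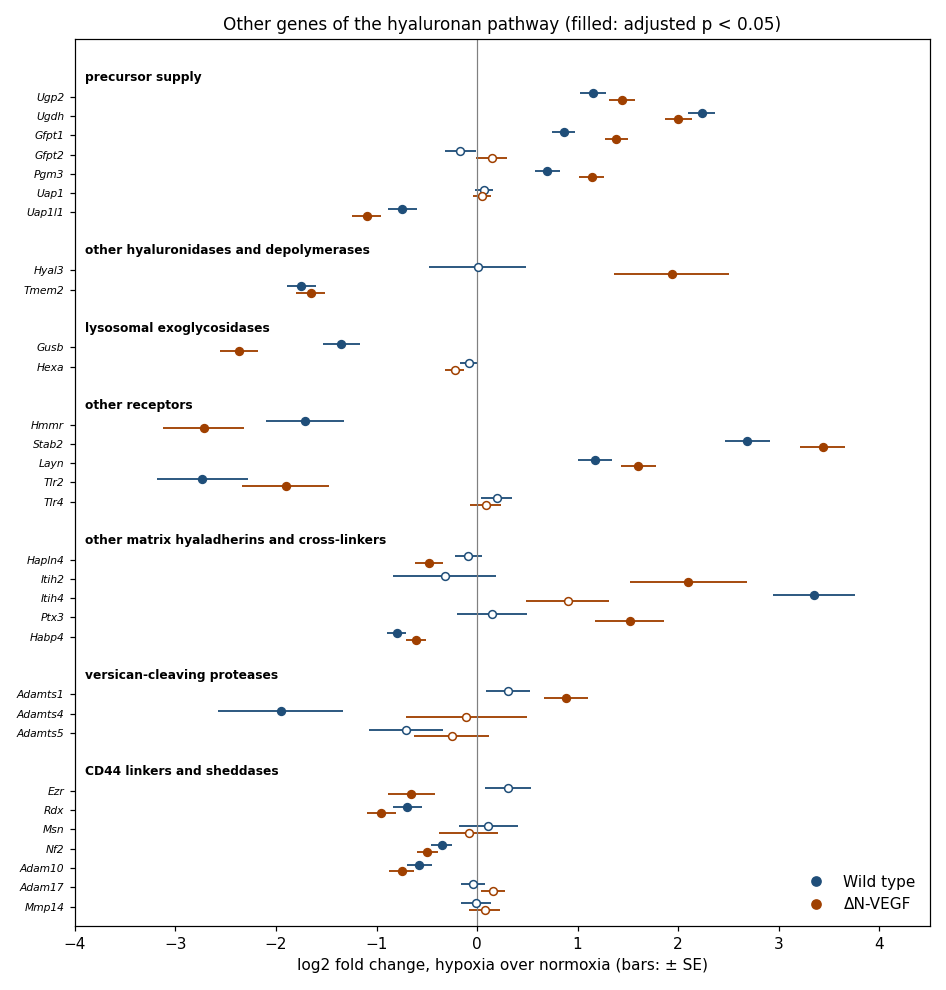
The log2 fold change of hypoxia over normoxia for the tested pathway genes outside the 9, except 1 that is not shown, by role, in wild-type (blue) and ΔN-VEGF cells (brown); bars are ± SE and filled points have an adjusted p below 0.05. Ugp2, Ugdh, Gfpt1 and Pgm3 lie to the right of 0 in both lines, and Tmem2, Gusb, Hmmr and Tlr2 to the left.

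Across the 12 samples, Cemip and Vcan followed each other at r = 0.96, Has2 and Tnfaip6 at r = 0.97, and Has2 and Hyal1 ran opposite at r = -0.91 (Pearson's r of log2 CPM). These values describe 12 samples in 4 groups that share the hypoxia contrast and, for Cemip and Vcan, the low normoxia samples numbered 2. Of 8522 genes with a mean of at least 10 CPM, those most like Has2 were Lhfpl2 and Fam20b (both 0.991), Vcam1 (0.990), Mex3a (0.989) and Atf7ip (0.987). Those most like Cemip were Tcaf1 (0.994), Vdr (0.992), Ppm1l (0.981), Vps13c (0.979) and Rnf122 (0.979).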

How the data were processed

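RNA of 12 samples was sequenced by the authors as 80-bp single reads from a kit that does not mark strand. They trimmed the reads, aligned them with TopHat2 2.1.0 and Bowtie2 2.2.6 to GRCm38.p6 (annotation release 94), and deposited raw counts of reads per gene from HTSeq-count 0.6.1, with no scaling. The strand setting of the counting is not given in the sources used here. Whole-number counts of 54446 genes were used as deposited.

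Groups were taken from the sample labels. In edgeR 4.0.16 (R 4.3.3, with limma 3.58.1), filterByExpr kept 14724 genes, libraries were scaled by TMM (factors 0.825 to 1.21), and 1 mean per group was fitted to all 12 samples. The quasi-likelihood F test was run for 5 comparisons: hypoxia against normoxia in each line, the lines against each other at each oxygen level, and the difference between the responses. Adjusted p-values are Benjamini-Hochberg values over all tested genes, and a gene was called below 0.05. Confidence intervals are 95% intervals of the same fit. CPM are counts relative to the TMM-scaled library size. The code was tested on simulated data.

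The members and lists were chosen with earlier results of these data known. All 9 members are named. Of the pathway list, the text names by rule up to 6 genes per comparison with the largest change among those called with a mean of at least 1 CPM; others named as examples of their group were chosen after their values were seen. One gene of the list is counted but not reported here by name. Genes of like pattern are the 5 with the highest r.

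Same-numbered normoxia samples of the 2 lines deviated together from their group means (3 of 3 pairs over 0.1, mean r 0.41 against -0.16 for other pairs), and the numbers were taken to pair them by this limit of 0.1 alone, since samples 1 and 3 of unlike number correlated as well (0.36 and 0.35) and only sample 2 is set apart by the check. The numbers paired no samples in the other comparisons (mean r 0.01 to 0.07). The alternatives were DESeq2 1.42.0, RLE scaling, scaling by total counts alone, all genes without a filter, a minimum of 10 counts in each sample, fits to only the 6 samples of a comparison, replicate number as a block, each sample left out, and a minimum fold change of 2. The fit without both normoxia samples numbered 2 and the block within normoxia were added after seeing the data.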

Additional observations from a re-analysis of the deposited data

Results flagged for a closer look

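Itih4, a gene of the inter-alpha-trypsin inhibitor family whose relatives are bound to hyaluronan, was the 1 pathway gene whose response to hypoxia differed between the lines by the test of the difference itself. That is 3.12% of the 32 tested, near the 3.36% of all tested genes, so the single call says nothing particular of the pathway. The difference was log2 -2.45, ΔN-VEGF minus wild type (edgeR's quasi-likelihood test, adjusted p 0.047). It had 5, 18 and 9 counts in wild-type normoxia and 90, 80 and 84 counts in hypoxia, and 14, 10 and 22 counts in ΔN-VEGF normoxia and 20, 24 and 20 counts in hypoxia. The hypoxia samples of the lines did not overlap. When each of the 12 samples was left out in turn, 10 of the fits called no pathway gene for this difference, while without wild-type normoxia sample 2, the highest of its group, the difference was 8.68-fold in place of 5.46-fold (log2 -3.12, adjusted p 0.00023).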

How the results depend on the processing

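Each member's change was recomputed under every alternative in the 5 comparisons, 945 values in all. Of these, 879 stayed on their side of the threshold (31 of them, uncalled in both fits, turned sign) and 32 lost a call. Another 32 gained a call with the same sign, and 2 gained one with the opposite sign. Those 2 are Cd44 between the lines in normoxia, uncalled with all 12 samples, at log2 0.34 without wild-type normoxia sample 2 and 0.27 without both normoxia samples numbered 2 (leaving out 1 sample at a time gave -0.21 to 0.34). The calls of Has2, Cemip, Hyal1, Vcan and Tnfaip6 in hypoxia held in both lines under all 21 alternatives, as did Cd44 in ΔN-VEGF cells. Members called in normoxia between the lines went from 1 to 0 with total counts, with only the 6 samples, with either replicate block and with the fold threshold, and to 7 without both normoxia samples numbered 2 (leaving out 1 sample gave 0 to 5). Of all tested genes the 6-sample fit called 0.108% and the block within normoxia 0.00718%, so a call lost there is not particular to Tnfaip6. The shares were 3.82% with total counts, 4.37% with the block over all 12 samples and 2.17% with the fold threshold. Between the lines in hypoxia the members called went from 1 to 3 with only the 6 samples, a fit that called 57% of all genes, 4 without both and 0 with the fold threshold (0 to 3). For the difference between the responses they went from 0 to 1 with total counts and 7 without both (0 to 5). Leaving out 1 sample gave 5 to 6 members in wild-type and 6 to 7 in ΔN-VEGF hypoxia. Pathway genes called in wild-type hypoxia went from 18 to 10 with the fold threshold, while the share of all tested genes went from 36.5% to 15.7%. Leaving out 1 sample gave 15 to 23 pathway genes, and 20 to 26 in ΔN-VEGF cells. Between the lines in normoxia they went from 0 to 3 with DESeq2, 1 with total counts, with no filter or with the replicate block, and 19 without both (0 to 16). Between the lines in hypoxia they went from 7 to 11 with total counts, 24 with only the 6 samples and 25 without both (3 to 16). They went to 2 with the fold threshold, which called 6.81% of all tested genes. For the difference between the responses they went from 1 to 4 with DESeq2, 3 with total counts, 2 with no filter or the replicate block, and 21 without both (0 to 18), while the share of all genes called went from 3.36% to 10.7%, 6.13%, 1.47%, 3.29% and 52.8%. For the 3 comparisons that involve both lines, the highest count on leaving out 1 sample came without wild-type normoxia sample 2 each time. The cause of these moves was not tested. The block over all 12 samples changed the call of 1 member, Tnfaip6 in normoxia. Total counts moved the median of all genes to log2 -0.30 in wild-type and -0.41 in ΔN-VEGF hypoxia, with 1892 higher and 4818 lower calls in wild-type cells against 2675 and 2697 with TMM, and 2249 and 6550 in ΔN-VEGF cells against 3964 and 3889. Depth limits Has1 and Has3, with 23 to 133 counts per sample.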
